A study of Homo sapiens with 2 samples.

Results

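Chromosomes 16, 20 and 22 carried 6925 of the 47810 S9.6 peaks (14.5%): 2590 on chromosome 16, 2190 on chromosome 20 and 2145 on chromosome 22. The peaks were chosen by the chromosome name in the deposited list, and these chromosomes were picked because they were already known to be rich in peaks, so their peak counts are a description and were not tested. The peaks came from CUT&Tag, in which an antibody on permeabilised cells tethers a transposase that tags nearby DNA for sequencing. The cells were wild-type A549, an established human lung cancer line grown without treatment. The S9.6 antibody, which binds hybrids of RNA and DNA, was used for 1 library. A second library used non-specific IgG, and its values were not analysed here. No library was repeated, peaks of 1 library are not replicates, and each interval covers counting error within the S9.6 library only. A549 cells are aneuploid and the copy number of each chromosome was not measured here, so more copies of a region and more tagging per copy cannot be told apart.

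An R-loop is a stretch of RNA paired with its DNA template, with the other DNA strand left single. R-loops form behind RNA polymerase, most readily near gene starts rich in G and C, and also near gene ends, and RNase H enzymes and helicases remove them. Chromosomes 16, 20 and 22 are small and rich in genes. The short arm of chromosome 22 consists largely of repeated sequence and ribosomal DNA, chromosome 16 has a large block of satellite DNA beside its centromere, and the short arm of chromosome 16 holds many recent duplications such as the NPIP genes.

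The promoters under the highest peaks are shown first, since they show how different the DNA under similar peaks was. For each chromosome, the list gives the 250 bases before the annotated start of the 2 protein-coding genes in the promoter table with the highest peak reaching into the promoter entry, and of 1 gene of a tissue-restricted family with no peak. Sequences are from RefSeq on GRCh38.p14, 5′ to 3′ on the strand of the gene. Capitals mark CCAAT or its reverse complement ATTGG, and GGGNGGG or its reverse complement CCCNCCC.
MYL11: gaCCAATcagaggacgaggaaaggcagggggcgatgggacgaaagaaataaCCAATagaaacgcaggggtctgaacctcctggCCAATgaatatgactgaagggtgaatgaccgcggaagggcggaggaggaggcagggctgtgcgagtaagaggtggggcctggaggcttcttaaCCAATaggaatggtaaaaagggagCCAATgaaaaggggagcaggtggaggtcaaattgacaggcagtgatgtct
TBC1D10B: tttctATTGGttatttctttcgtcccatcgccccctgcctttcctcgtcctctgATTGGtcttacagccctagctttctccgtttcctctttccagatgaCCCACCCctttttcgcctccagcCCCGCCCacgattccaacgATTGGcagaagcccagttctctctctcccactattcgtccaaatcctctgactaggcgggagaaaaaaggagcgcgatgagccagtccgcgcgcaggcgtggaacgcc
RALY: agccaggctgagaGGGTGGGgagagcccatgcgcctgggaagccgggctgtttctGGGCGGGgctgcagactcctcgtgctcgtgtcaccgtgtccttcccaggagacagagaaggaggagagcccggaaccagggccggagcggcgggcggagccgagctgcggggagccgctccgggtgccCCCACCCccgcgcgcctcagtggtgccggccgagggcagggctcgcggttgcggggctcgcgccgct
OSBPL2: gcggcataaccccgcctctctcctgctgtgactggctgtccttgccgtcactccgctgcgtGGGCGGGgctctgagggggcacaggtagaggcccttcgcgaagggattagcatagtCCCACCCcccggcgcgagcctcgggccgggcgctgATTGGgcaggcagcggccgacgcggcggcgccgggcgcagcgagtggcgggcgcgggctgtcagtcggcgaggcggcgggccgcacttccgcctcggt
GTPBP1: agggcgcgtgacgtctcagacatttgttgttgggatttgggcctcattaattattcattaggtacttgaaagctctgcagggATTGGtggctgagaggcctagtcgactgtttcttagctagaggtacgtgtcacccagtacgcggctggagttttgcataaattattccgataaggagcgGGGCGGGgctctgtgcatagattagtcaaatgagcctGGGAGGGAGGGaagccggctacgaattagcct
RBX1: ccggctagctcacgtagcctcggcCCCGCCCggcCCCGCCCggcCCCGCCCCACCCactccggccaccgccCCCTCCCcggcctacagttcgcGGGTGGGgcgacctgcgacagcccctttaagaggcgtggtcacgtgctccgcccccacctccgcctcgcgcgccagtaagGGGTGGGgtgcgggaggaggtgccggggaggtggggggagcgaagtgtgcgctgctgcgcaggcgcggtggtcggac
HBM: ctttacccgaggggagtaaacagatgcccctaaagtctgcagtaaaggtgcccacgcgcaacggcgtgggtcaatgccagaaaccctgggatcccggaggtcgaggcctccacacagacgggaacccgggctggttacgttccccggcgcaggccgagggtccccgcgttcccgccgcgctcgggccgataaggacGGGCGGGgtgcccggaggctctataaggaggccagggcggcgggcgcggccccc
BPIFA1: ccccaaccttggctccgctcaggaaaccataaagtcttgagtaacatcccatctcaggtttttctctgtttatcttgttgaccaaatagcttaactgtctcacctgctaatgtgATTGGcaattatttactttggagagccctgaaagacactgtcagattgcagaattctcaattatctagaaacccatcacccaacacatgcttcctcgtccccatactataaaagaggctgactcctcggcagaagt
PVALB: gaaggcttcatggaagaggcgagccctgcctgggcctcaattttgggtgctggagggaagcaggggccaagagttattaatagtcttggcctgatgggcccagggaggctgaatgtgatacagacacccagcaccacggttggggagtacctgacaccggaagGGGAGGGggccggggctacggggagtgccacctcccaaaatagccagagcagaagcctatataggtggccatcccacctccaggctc

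MYL11, which encodes a light chain of fast muscle myosin, and TBC1D10B, which encodes an activator of Rab GTPases, point away from each other and shared 1 peak with a maximum coverage of 19. The printed bases of MYL11 lie at chr16:30370684-30370933 on the plus strand and those of TBC1D10B at chr16:30370495-30370744 on the minus strand. They were only moderately rich in G and C (53.6% and 55.6%), and held 5 and 3 copies of CCAAT. RALY, which encodes an RNA-binding protein of the hnRNP family (chr20:33993661-33993910, plus), and OSBPL2, for an oxysterol-binding protein (chr20:62238271-62238520, plus), had peaks of 18 and 15 over promoters of 74.4% G and C each. GTPBP1, which encodes a GTP-binding protein (chr22:38705694-38705943, plus), had a peak of 17 over a promoter of 50.8% G and C with 3 copies of GGGNGGG. RBX1, the RING subunit of cullin ubiquitin ligases (chr22:40951128-40951377, plus), had a peak of 15 over 76.8% G and C with 7 copies. The MYL11 and TBC1D10B bases overlap, so their CCAAT copies are partly the same. The 3 promoters without a peak were those of the globin gene HBM (chr16:165728-165977, plus; 69.2% G and C), the airway secretory gene BPIFA1 (chr20:33235746-33235995, plus; 43.6%) and the parvalbumin gene PVALB (chr22:36819500-36819749, minus; 60%). The G and C content of peaked promoters thus overlapped that of promoters without a peak.

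Peaks were 2 to 3 times as dense on these chromosomes as elsewhere. Peaks per Mb were 28.7 on chromosome 16, 34.0 on chromosome 20 and 42.2 on chromosome 22, against 13.7 over the other chromosomes of 1 to 22 and X. The ratios were 2.09 (95% interval 2.01 to 2.17), 2.48 (2.37 to 2.59) and 3.07 (2.94 to 3.21), from the Wilson interval of each chromosome's share of peaks. Among 23 chromosomes, they ranked 5, 4 and 2 in peak density, with chromosome 19 (59.9 per Mb) above all 3, chromosome 17 (40.5) between 22 and 20, and chromosome 15 (19.6) next below 16. Peaks covered 2.17%, 2.55% and 3.27% of the sequence up to the last annotated gene or peak, against 1.04% elsewhere. Individual peaks were alike: the median width was 685 bp on chromosome 16, 686 bp on chromosome 20 and 695 bp on chromosome 22, against 685 bp elsewhere.

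Gene density was higher by less than peak density. Protein-coding genes per Mb numbered 9.37 on chromosome 16, 8.35 on chromosome 20 and 8.64 on chromosome 22, against 6.37 on the others, ratios of 1.47, 1.31 and 1.36. Peaks per protein-coding gene were therefore also higher, at 3.07 (1.42 times the 2.16 of the others; interval 1.37 to 1.48), 4.08 (1.89 times; 1.81 to 1.97) and 4.89 (2.26 times; 2.17 to 2.37). Chromosome 22 ranked 1 and chromosome 20 ranked 2 of 23 by this measure, and chromosome 16 ranked 6. Over the 23 chromosomes, peaks per Mb and protein-coding genes per Mb had a Spearman rho of 0.739 and a Pearson r of 0.863. These points share 1 library and differ in base composition and copy number, and the r includes chromosome 19, which lies far from the rest.

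**Figure D1:**
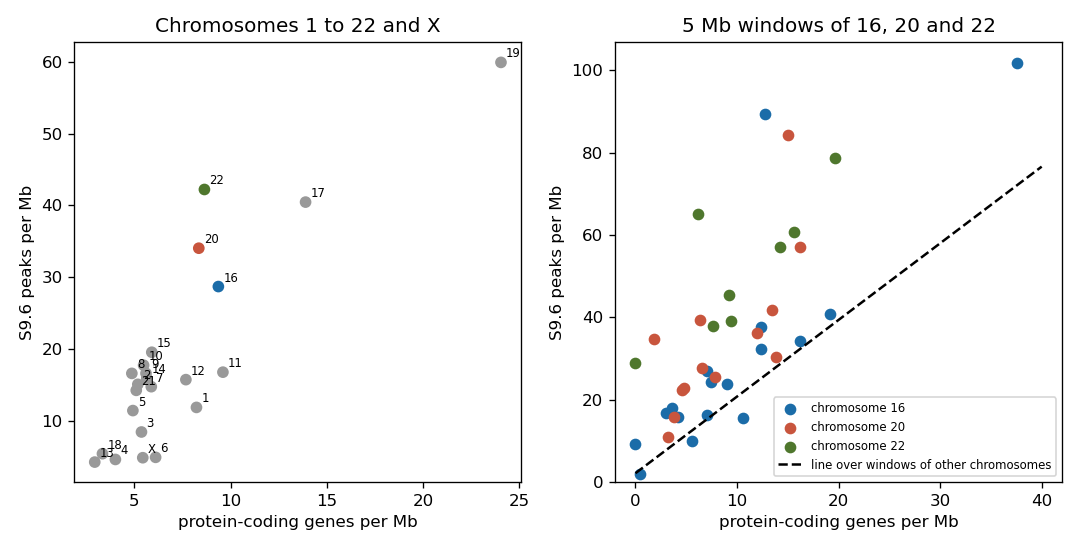
S9.6 peaks per Mb against protein-coding genes per Mb, for 23 chromosomes (left) and for 5 Mb windows of chromosomes 16, 20 and 22 (right); the dashed line was fitted to the windows of the other chromosomes. All 13 windows of chromosome 20 and all 8 of chromosome 22 lie above the line, and 14 of 17 of chromosome 16.

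The extra peaks lay both at gene boundaries and away from them. A boundary here means no more than 1000 bp from the first or last base of an annotated protein-coding or lncRNA gene. Boundary peaks per Mb were 7.64, 6.45 and 8.31 on chromosomes 16, 20 and 22 against 3.22 elsewhere, and all other peaks were 21.1, 27.6 and 33.9 against 10.5. On chromosome 16 the ratio was larger at boundaries (2.37) than away from them (2.00), whereas on chromosomes 20 (2.01 and 2.62) and 22 (2.58 and 3.22) it was smaller. The share of peaks at a boundary was 26.6% on chromosome 16 (95% interval 24.9 to 28.3), 18.9% on chromosome 20 (17.4 to 20.6) and 19.7% on chromosome 22 (18.0 to 21.4), against 23.4% elsewhere. Chromosome 20 had the largest share of peaks between genes, 32.9%, compared with 20.2% on chromosome 16, 26.7% on chromosome 22 and 26.0% elsewhere.

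The share of high peaks was larger on chromosome 16 than on chromosome 20. Maximum coverage is the highest number of overlapping fragments the authors' peak caller wrote for a peak. It reached at least 5 in 286 peaks of chromosome 16 (11.0%, interval 9.89 to 12.3), 182 of chromosome 20 (8.31%, 7.23 to 9.54) and 208 of chromosome 22 (9.70%, 8.52 to 11.0), against 9.50% elsewhere. A maximum of 1 or 2 was found in 49.7%, 54.4% and 46.4% of peaks, against 55.4% elsewhere. By height, the density ratio to the other chromosomes was 1.88 at a maximum of 1 or 2, 2.53 at 4 and 2.20 at 10 or more (39 peaks) on chromosome 16. On chromosome 22 it was 2.57 at 1 or 2, 4.12 at 4, 3.30 at 5 to 9 and 2.20 at 10 or more (22 peaks). On chromosome 20 it lay between 2.33 and 2.73 up to a maximum of 9 and was 1.26 at 10 or more, where 16 peaks were counted. Higher peaks lay at boundaries more often on all 3 chromosomes: 15.7%, 10.8% and 11.3% at a maximum of 1 or 2, and 61.1%, 58.4% and 49.5% at 5 to 9. The other chromosomes had 13.1% and 63.1%. Peaks also stood close together, with a median gap to the next peak of 9.51 kb on chromosome 16, 13.1 kb on chromosome 20 and 7.76 kb on chromosome 22, against 18.3 kb elsewhere.

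**Figure D2:**
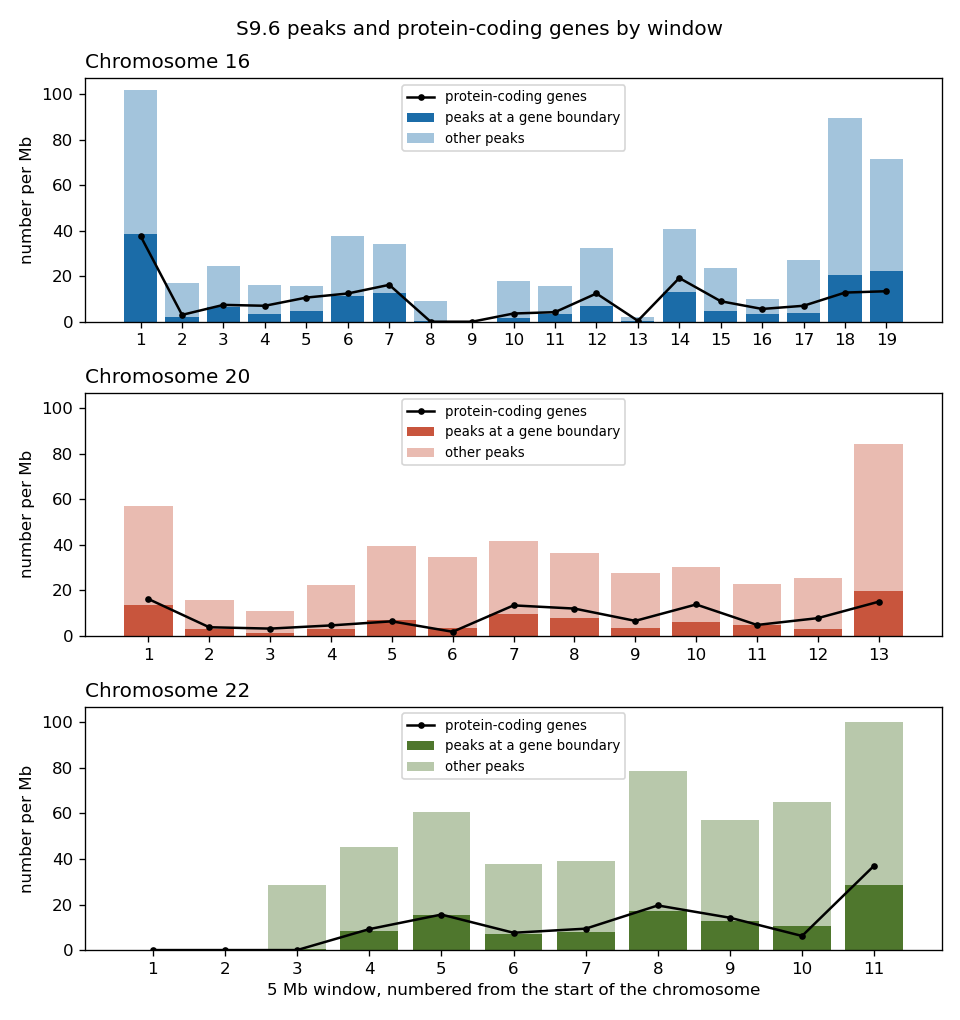
S9.6 peaks per Mb in 5 Mb windows numbered from the start of each chromosome (bars, dark for peaks at a gene boundary and light for other peaks) with protein-coding genes per Mb (black line). Windows 1 and 18 of chromosome 16, window 13 of chromosome 20 and windows 8 and 11 of chromosome 22 are the highest; the last window of chromosomes 16 and 22 is shorter than 1 Mb.

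On chromosome 16 the peaks gathered at its ends. The first 5 Mb held 509 peaks, or 101.8 per Mb (exact Poisson 95% interval 93.1 to 111), with 37.6 protein-coding genes per Mb, and ranked 4 among 612 windows of the genome. This window holds IFT140, a ciliary transport gene with 16 peaks, the calcium channel gene CACNA1H with 13 and PKD1, the polycystin 1 gene, with 12. The window from 85 to 90 Mb held 447 peaks, 89.4 per Mb (81.3 to 98.1), with only 12.8 genes per Mb, 3.44 times the line fitted to windows of other chromosomes. Its peaks lay over GSE1 (50 peaks over 507 kb), ZNF469 (30), the chromatin regulator gene ANKRD11 (25) and the amino acid transporter gene SLC7A5 (24). The shorter final window, from 90 to 90.2 Mb, had 71.4 per Mb from 16 peaks. Apart from the empty window from 40 to 45 Mb, the sparsest windows ran from 60 to 65 Mb, with 10 peaks (2 per Mb) where CDH8 and CDH11 were the only protein-coding genes, and from 35 to 40 Mb, with 46 peaks (9.2 per Mb) and no protein-coding gene. The third-sparsest with peaks was the window from 75 to 80 Mb, with 50 peaks (10 per Mb), 8 of which lay over WWOX.

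Chromosome 20 was more even, with a single steep rise at the end of its long arm. The window from 60 to 64.3 Mb had 84.3 peaks per Mb (75.9 to 93.4) and 15.02 genes per Mb, with 38 peaks over the cadherin gene CDH4 and 26 over LAMA5, which encodes laminin alpha 5 and has a span of only 58.2 kb. The first 5 Mb followed with 57.2 per Mb (50.8 to 64.2) and the window from 30 to 35 Mb with 41.8 (36.3 to 47.9). The sparsest were those from 10 to 15 Mb (11 per Mb), 5 to 10 Mb (15.8) and 15 to 20 Mb (22.4). MACROD2, a very long gene that runs across the 15 Mb mark, had 19 peaks, or 0.922 per 100 kb. Peaks and genes parted between 20 and 30 Mb. The window from 20 to 25 Mb had 39.4 peaks per Mb at 6.4 genes per Mb, and that from 25 to 30 Mb had 34.8 at 1.8 genes per Mb, 6.33 times the fitted line. In the latter, 15 peaks lay over NINL, a centrosomal gene, and 64 of its 174 peaks fell in its first Mb. From base 25696854 onward, that window lies in the span around the centromere without a protein-coding gene, described below.

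Chromosome 22 was dense from the first annotated genes to its end. Its window from 35 to 40 Mb had 78.6 peaks per Mb (71.0 to 86.8), with 27 over the non-muscle myosin gene MYH9 and 25 over the calcium channel gene CACNA1I, each in spans near 110 kb (107 and 119 kb). The partial window from 50 to 50.8 Mb had 100.2 per Mb from 81 peaks, and that from 45 to 50 Mb had 65 (58.1 to 72.5) with only 6.2 genes per Mb, 4.75 times the line. In the latter, 21 peaks lay over GRAMD4, 17 over TAFA5 and 16 over TBC1D22A, while 16% of its 325 peaks were at a boundary. The sparsest windows with peaks were those from 10 to 15 Mb (28.8 per Mb, no protein-coding gene), 25 to 30 Mb (38) and 30 to 35 Mb (39.2). No peak or gene was listed before 10.5 Mb on this chromosome.

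Over whole windows, peaks followed genes. Spearman's rho between peaks and protein-coding genes per Mb was 0.853 over 17 windows of chromosome 16, 0.731 over 13 of chromosome 20 and 0.619 over 8 of chromosome 22, against 0.668 over 557 windows elsewhere; windows with no peak or under 1 Mb were left out, and all windows share 1 library. For peaks away from boundaries, rho was 0.811, 0.659 and 0.619. The 9 most gene-dense of 19 windows of chromosome 16 held 73.1% of its peaks (interval 71.3 to 74.8) and 77.4% of its genes in 44.6% of its length. On chromosome 20, 6 of 13 windows held 60.3% of peaks (58.2 to 62.3) and 70.9% of genes, and on chromosome 22, 5 of 11 held 58.7% (56.6 to 60.8) and 73.8%.

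At a like gene density, windows of these chromosomes had more peaks. The median was 16.8 peaks per Mb over 7 windows with 2 to 5 protein-coding genes per Mb, against 5.4 over 221 windows elsewhere. At 5 to 10 genes per Mb it was 27.4 over 12 windows against 11.8 over 170, and at 10 to 20 it was 41.3 over 14 against 22.7 over 70. A straight line through the windows of the other chromosomes was exceeded in 14 of 17 windows of chromosome 16, 13 of 13 of chromosome 20 and 8 of 8 of chromosome 22, whereas 35.4% of the other chromosomes' own windows lay above it. The windows below the line were those of chromosome 16 from 20 to 25, 60 to 65 and 75 to 80 Mb. Windows above it included some wholly or mostly in the span around a centromere without a protein-coding gene. Such windows were those of chromosome 16 from 35 to 40 Mb, chromosome 20 from 25 to 30 Mb and chromosome 22 from 10 to 15 Mb.

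**Figure D3:**
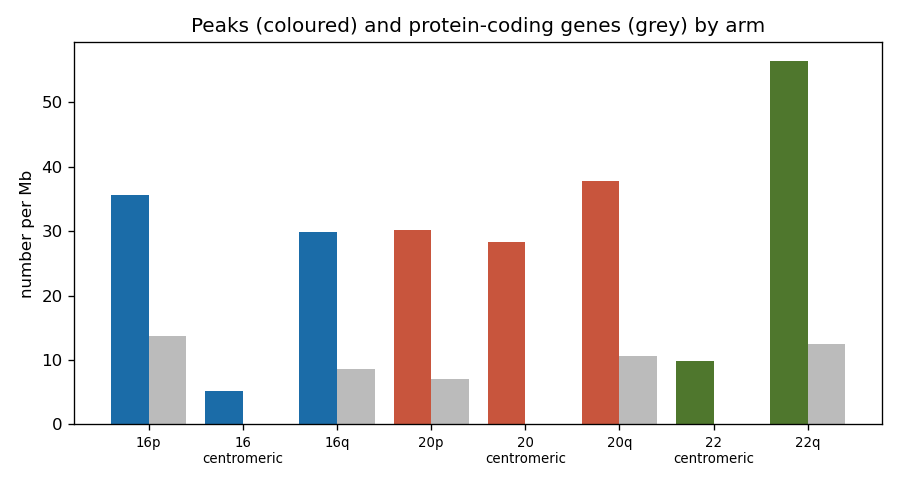
S9.6 peaks per Mb (coloured) and protein-coding genes per Mb (grey) on each arm and on the span without a protein-coding gene around each centromere. Arm 22q has the most peaks per Mb, 56.5, and arm 16q the fewest among arms, 29.9.

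By arm, the order of peaks matched that of genes within chromosomes 16 and 20. Arms were split at the span without a protein-coding gene that holds the centromere. Arm 16p had 35.6 peaks and 13.7 genes per Mb, and 16q had 29.9 and 8.57. The short arm held 47.2% of the peaks of chromosome 16 (interval 45.3 to 49.1), 55.7% of its genes and 38.1% of its length, so that peaks per gene were lower on 16p (2.60) than on 16q (3.48). Arm 20p had 30.2 peaks and 7.005 genes per Mb and 20q had 37.8 and 10.7. The short arm held 35.5% of the peaks of chromosome 20 (33.5 to 37.5) and 33.5% of its genes, with 4.32 peaks per gene against 3.55 on 20q. Boundary peaks made up 32.3% of peaks on 16p, 22.5% on 16q, 18.9% on 20p, 20.3% on 20q and 21.1% on 22q. Arm 22q had 56.5 peaks and 12.4 genes per Mb.

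The centromeric spans, without protein-coding genes, held 64 peaks on chromosome 16, 145 on chromosome 20 and 153 on chromosome 22, where the span includes the short arm. Those of chromosome 16 were tall: 17 of 64 reached a maximum of 5, against 11.4% of peaks on 16p and 9.98% on 16q. Of the 6 highest peaks on chromosome 16, 4 lay here, at chr16:46386883-46391526 (maximum 27, total signal 49744), chr16:46398091-46401567 (21), chr16:46393948-46395398 (21) and chr16:34581194-34584003 (19). Peaks of 18 and 15 lay at chr16:34586460-34587052 and chr16:38275996-38277129 in the same span. On chromosome 20 the span had 28.3 peaks per Mb, close to the 30.2 of 20p, and its highest peak lay over the lncRNA gene LINC01597 (maximum 14). Repeats and duplications are common in such spans, and the treatment of reads that map to several places is not given in the sources used here, so fragments may have been assigned to the wrong copy.

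Of the 6 chromosome ends, 4 held between 9.23% and 11.23% of their chromosome's peaks in 2 Mb. The last 2 Mb held 253 peaks on chromosome 16, 246 on chromosome 20 and 198 on chromosome 22, which was 9.77%, 11.23% and 9.23% of each chromosome's peaks, and the first 2 Mb of chromosome 16 held 276 (10.7%). The first 2 Mb of chromosome 20 held 114 (5.21%), and those of chromosome 22 held none. The last 2 Mb held 44 of 845 protein-coding genes on chromosome 16, 54 of 537 on 20 and 38 of 439 on 22. The first 2 Mb held 93 on chromosome 16 and 36 on chromosome 20. The part of gene density in these peak counts was not tested. The highest peak of all 3 chromosomes, with a maximum of 142 and a total signal of 41754 over 665 bp, was the last feature of chromosome 22 at chr22:50807825-50808489. It lay 24189 bp beyond RABL2B, the last protein-coding gene. The next highest on this chromosome reached 17. Whether the sequence under the peak of 142 is repeated was not examined, and the IgG signal there was not compared. A peak of 18 lay at chr20:64286701-64287460, 10475 bp from PCMTD2.

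Among the other high peaks, several lay at gene boundaries. On chromosome 16 the highest, with a maximum of 30, was at a boundary of EEF2KMT, which encodes a methyltransferase of elongation factor 2 (chr16:5097199-5098923). One of 26 lay between genes at chr16:1025253-1025817, 38274 bp from SOX8, and 1 of 15 inside BANP. On chromosome 20 they included UCKL1 (17, inside the gene), RRBP1, a ribosome-binding protein of the endoplasmic reticulum (13), SPAG4 (12), and a peak of 12 shared by PCNA, the replication clamp, and its neighbour CDS2. Peaks of 11 lay inside ABHD12 and at ZNFX1, whose boundary region is shared with the snoRNA host gene ZFAS1. On chromosome 22 they included a peak of 17 between genes, 15280 bp from the kinase gene PIM3, 1 of 17 at the pseudogene TMEM191A, and 1 of 13 shared by GUCD1 and SNRPD3, a core protein of the spliceosome. MYH9 also had 13 at a boundary, besides the other peaks over its span. A peak of 13 lay 5965 bp from HDHD5, and 2 others, of 13 and 12, lay before the first protein-coding gene, the first of them at the pseudogene DUX4L44.

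The genes with most peaks over their span were mostly long. GSE1 (50 peaks), CDH4 (38) and the receptor phosphatase gene PTPRT (33) had no boundary peak. CMIP, with 38 peaks, had a boundary peak of 7, and the splicing regulator gene RBFOX1, with 36 over 2474 kb, had 1 of 3. Per 100 kb, LAMA5 (43.2), MYH9 (24.8) and CACNA1I (20.7) were far denser than RBFOX1 (1.45) and PTPRT (2.84).

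Protein-coding genes of these chromosomes had a boundary peak more often than those elsewhere. The count was 494 of 845 on chromosome 16 (58.5%, 95% Wilson interval 55.1 to 61.7), 283 of 537 on chromosome 20 (52.7%, 48.5 to 56.9) and 267 of 439 on chromosome 22 (60.8%, 56.2 to 65.3). Over all chromosomes the share was 40.3%, and 38.6% over the others. Of the others, chromosome 17 had 55.3% (52.4 to 58.2) and chromosome 19 had 52.8% (50.2 to 55.4), no lower than chromosome 20. The intervals of chromosomes 16 and 22 overlap, and that of chromosome 20 overlaps both. By gene length, the share on these chromosomes and elsewhere was 55.5% against 34.0% below 5 kb, 60.8% against 41.7% from 5 to 20 kb, 58.0% against 41.0% from 20 to 100 kb, and 46.6% against 32.4% above. The part of gene length in the difference was not tested. Peaks away from boundaries were also denser here, as given above, and their part in this difference was not tested.

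Most other gene classes had higher shares too. For lncRNA genes the share with a boundary peak was 29.2% on chromosome 16, 29.8% on chromosome 20 and 41.2% on chromosome 22 (36.1 to 46.6), against 18.3% over all chromosomes. For miRNA genes it was 63 of 176 (35.8%, 29.1 to 43.1) against 18.3%, and for snoRNA genes 25 of 89 (28.1%, 19.8 to 38.2) against 9.75%. Of the 26 tRNA genes on chromosome 16, 18 had a peak (69.2%, 50.01 to 83.5), against 45% over all chromosomes. Pseudogenes had 12.4% against 5.62%. Of 6 snRNA genes 1 had a peak (16.7%, 3.01 to 56.4), against 39.9% on the other chromosomes. Neighbouring small genes can share 1 peak, so they are not independent counts, and near-identical copies are uncertain.

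Peaks sat at gene starts more than at gene ends. Strand was known for 1303 of the 1821 protein-coding genes, those with a RefSeq promoter entry. Of these, 673 (51.6%, 48.9 to 54.4) had a peak within 1000 bp of the start, against 36% over all chromosomes, and 284 (21.8%, 19.6 to 24.1) within 1000 bp of the end, against 11.4%; 175 had both. By chromosome, starts and ends had 54.01% and 23.2% on chromosome 16, 46.6% and 18.0% on chromosome 20, and 53.2% and 23.7% on chromosome 22. Of the other chromosomes, 17 had 50.8% and 21.4%, and 19 had 45.7% and 24.9%. With peaks of maximum coverage 5 or more, 306 genes (23.5%) had 1 at the start, against 14.2% over all chromosomes, and 44 (3.38%) at the end, against 1.72%. A window around an end can hold the start of the next gene, and how many end peaks lay at a neighbour's start was not tested.

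Promoters with higher peaks were richer in G and C. Over the 250 bases before the start, median G and C content was 64.0% for 760 genes without a peak over the promoter and 68.0% for 286 with a maximum of 5 or more. On the other chromosomes the medians were 59.6% and 66.4%. A promoter counts here as peaked where a peak overlaps the 250 bases before to 50 bases after the start, which held for 28.4% of promoters over all chromosomes. The ratio of observed to expected CpG had medians of 0.699 and 0.881. GGGNGGG, on either strand, occurred in 61.6% of promoters without a peak (58.1 to 65.0) and 77.3% of those with a maximum of 5 or more (72.1 to 81.7), against 62.2% of all promoters of this length. CCAAT, on either strand, occurred in 28.2% (25.1 to 31.5) and 42.0% (36.4 to 47.7), against 34.4% of all, and TATAAA in 7.24% and 3.85%, against 9.36%. GGGG, which can overlap GGGNGGG, was in nearly all: 94.2% and 96.9%, against 92.1%. Promoters with a maximum of 1 or 2, of which there were 58, ran the other way, with GGGNGGG in 46.6% (34.3 to 59.2) and CCAAT in 22.4% (13.6 to 34.7). On the other chromosomes, 486 such promoters did not do so for GGGNGGG, with 70.2% (66.0 to 74.1) against 57.7% without a peak. For CCAAT they had 28.4% against 32.9%. In the first 50 bases after the start, the median GC skew, the excess of G over C as a share of both, was 0.0625 without a peak and 0.133 with a maximum of 5 or more. It was 0.176 at a maximum of 1 or 2 and 0.128 at 3 or 4, so it did not rise with peak height. Over the 250 bases before the start, the median skew was 0 without a peak and -0.0127 with a maximum of 5 or more.

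**Figure D4:**
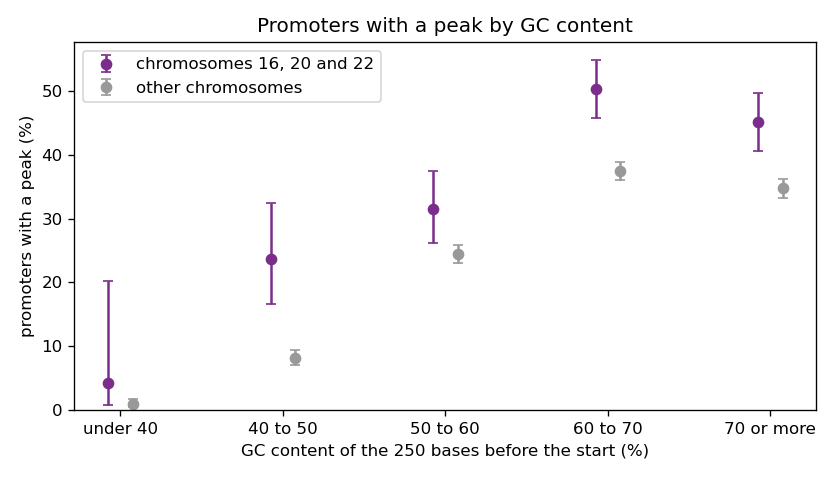
Share of protein-coding promoters with a peak, by G and C content of the 250 bases before the start, for chromosomes 16, 20 and 22 and for the other chromosomes; bars are 95% Wilson intervals. In the class from 60 to 70% the shares are 50.3% and 37.4%, and in that from 40 to 50% they are 23.6% and 8.15%.

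In classes of G and C content, the share of promoters with a peak was higher here than elsewhere from 40% upward, and the part of base composition in this was not tested. The share was 26 of 110 (23.6%, 16.7 to 32.4) against 8.15% from 40 to 50% G and C, and 31.5% (26.2 to 37.4) against 24.5% from 50 to 60%. It was 50.3% (45.7 to 54.9) against 37.4% from 60 to 70%, and 45.2% (40.7 to 49.8) against 34.7% from 70% upward. Below 40%, 1 of 24 had a peak, too few to compare.

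In 3 of 4 gene groups with broad functions in the cell, most members had a boundary peak, as did most protein-coding genes of each of these chromosomes. On chromosome 22, 20 of 22 genes of transcription, translation and repair did (90.9%, 72.2 to 97.5), with 15 at RBX1, 10 at EWSR1, an RNA-binding protein gene, and 9 at XRCC6, which encodes the Ku70 end-joining protein; EIF4ENIF1 and PES1 had none. On chromosome 20, 14 of 19 genes listed under replication and mitosis did (73.7%, 51.2 to 88.2), with 12 at PCNA, 9 at topoisomerase TOP1 and 6 at DSN1. GINS1 and KIF3B had none. The 14 include POFUT1, a fucosyltransferase gene outside these functions, with 3. Of 20 genes on chromosome 20 listed under RNA processing, 9 did (45%, 25.8 to 65.8), with 18 at RALY, 9 at NOP56 and 5 at CSTF1. ADNP and CRNKL1 had none. The list also holds ADNP and NCOA3, which encode transcription regulators, and neither had a boundary peak. On chromosome 16, 15 of 22 genes listed under genome maintenance and cell cycle did (68.2%, 47.3 to 83.6). Maxima were 9 at ORC6 of the origin recognition complex, 8 at CTCF, the insulator protein gene, and 7 at the nuclease gene ERCC4. CCNF and CHTF8 had none. This list also holds RNA polymerase subunit genes, POLR3K with 6, POLR3E with 5 and POLR2C with none. The RNA processing list, at 45%, was near the share over all genes. These shares stand beside 40.3% over all protein-coding genes and 58.5%, 52.7% and 60.8% on chromosomes 16, 20 and 22. The interval of the chromosome 22 group lay above its chromosome's share, and those of the other groups included the share of their own chromosome.

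In both recurrent deletion intervals most genes had a boundary peak. Of 25 genes of the 16p11.2 interval, 21 had a boundary peak (84%, 65.3 to 93.6), led by ALDOA, the glycolytic aldolase, KIF22 and the transcription factor gene MAZ with 6 each, while CORO1A and GDPD3 had none. Of 36 genes of the 22q11.2 interval, 26 did (72.2%, 56.0 to 84.2), with 9 at CDC45, a replicative helicase factor, and at its neighbour UFD1, and 8 at DGCR2, while ESS2 and GP1BB had none. The shares on the whole chromosomes were 58.5% on 16, below the interval of the first count, and 60.8% on 22, within that of the second. Genes in these intervals are close together and several share a peak.

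**Figure D5:**
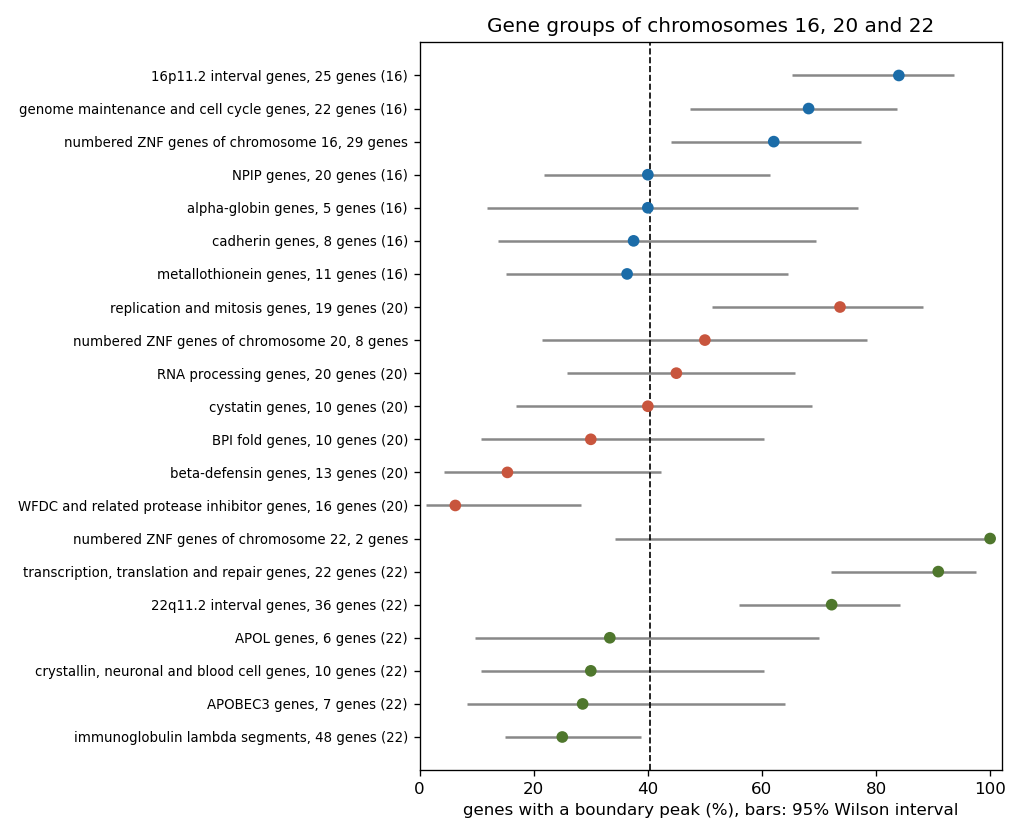
Percent of genes with a boundary peak in each gene group of chromosomes 16 (blue), 20 (red) and 22 (green), with 95% Wilson intervals; the dashed line is the 40.3% over all protein-coding genes. Transcription, translation and repair genes (90.9%) and 16p11.2 genes (84%) lie to the right, and WFDC genes (6.25%) to the left.

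Among families of chromosome 20 expressed in few tissues, the share with a boundary peak ran from 6.25% to 40%, beside 40.3% over all protein-coding genes and 52.7% on this chromosome. Of 16 WFDC and related protease inhibitor genes on chromosome 20, expressed mainly in epithelia of the reproductive tract and airways, 1 had a boundary peak (6.25%, 1.11 to 28.3), WFDC2 with a maximum of 2, and EPPIN and PI3 had none. Of 13 beta-defensin genes 2 did (15.4%, 4.33 to 42.2), DEFB115 with 3 and DEFB124 with 2, and DEFB116 and DEFB118 had none. The BPI fold genes had 3 of 10, with 3 at BPIFA2 and BPIFB2 and 2 at BPIFB1, and none at BPI or BPIFA1. Cystatin genes had 4 of 10: CST3, the widely expressed cystatin C gene, had 5, CST1 and CST2 had 2 each, and CST11 and CST4 had none. The interval of the WFDC genes lay below the share over all genes, and those of the beta-defensin, BPI fold (10.8 to 60.3) and cystatin genes (16.8 to 68.7) included it.

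On chromosome 16, the alpha-globin, metallothionein, cadherin and NPIP genes had boundary peaks in 40%, 36.4%, 37.5% and 40% of members, close to the 40.3% over all protein-coding genes and below the 58.5% on this chromosome. Their intervals were 11.8 to 76.9, 15.2 to 64.6, 13.7 to 69.4 and 21.9 to 61.3, and each included both of these shares. Alpha-globin genes had 2 of 5, HBA1 and HBQ1 with a maximum of 2 each, and HBA2 and HBM had none. Metallothionein genes, which encode metal-binding proteins and share much of their sequence, had 4 of 11, with 6 at MT1X, 3 at MT3 and 2 at MT1F, and none at MT1A or MT1B. Cadherin genes had 3 of 8, with 6 at CDH15, 4 at CDH1, the epithelial cadherin gene, and 3 at CDH5, and none at CDH11 or CDH13. All 8 cadherin genes had a peak over the span or within 1000 bp of it, as did 60.8% of all protein-coding genes, and CDH13 had 12. On chromosomes 16, 20 and 22, that share rose with gene length, from 58.8% below 5 kb to 95.3% from 100 kb upward. The duplicated NPIP genes had 8 of 20, with 5 at NPIPB9, 4 at NPIPA3 and 3 at NPIPB2, and none at NPIPA1 or NPIPA2; copies are too alike for a fragment to be placed with certainty.

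On chromosome 22, APOBEC3 cytidine deaminase genes had 2 of 7 (28.6%, 8.22 to 64.1), APOBEC3G with 4 and APOBEC3B with 3, and APOBEC3A and APOBEC3C had none. APOL genes had 2 of 6 (33.3%, 9.68 to 70), APOL2 with 3 and APOL3 with 2, and APOL1 and APOL4 had none. The intervals of both families included the 40.3% over all genes. Of 48 immunoglobulin lambda segments, which only B cells rearrange and express, 12 had a boundary peak (25%, 14.9 to 38.8), against 7.91% of all immunoglobulin and T cell receptor segments. The highest were 6 at IGLV3-22 and 3 at IGLC3 and IGLJ3, while IGLC1 and IGLC2 had none. IGLC3 and IGLJ3 shared 1 peak, as did IGLC7 and IGLJ7, so the segments are not independent counts. The 7.91% includes these 48 segments. Among 10 crystallin, neuronal and blood cell genes, 3 did, CACNG2 with 4 and CRYBB3 and IL2RB with 3, and CRYBA4 and CRYBB1 had none; SYN3, without a boundary peak, had 24 over its span. Numbered ZNF genes had 18 of 29 on chromosome 16 (62.1%, 44.0 to 77.3), near that chromosome's 58.5%, with 13 at ZNF174, 8 at ZNF668 and 7 at ZNF48 and none at ZNF19 or ZNF23. They had 4 of 8 on chromosome 20, with 6 at ZNF335 and ZNF337 and 4 at ZNF343 and none at ZNF217 or ZNF334, and 2 of 2 on chromosome 22, ZNF70 and ZNF74 with 4 each.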

How the data were processed

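The authors deposited 1 list of S9.6 peaks, in a layout of 6 columns with a total signal and a maximum coverage per peak. Both are whole numbers, so the values show no depth scaling. The submitters' processing notes list SEACR 1.3, deepTools 3.5.2, fastp 0.23.2, SAMtools 1.9, Bowtie2 2.4.2 and bedtools 2.30.0, with the build GRCh38. Which tool did what, the threshold, the use of the IgG library and the handling of duplicate reads are, like read depth, not given in the sources used here. A peak is therefore a region above an unknown threshold, and signal below it was not listed.

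RefSeq gene spans (GRCh38.p14) were used. On chromosomes 16, 20 and 22, 110 of 4983 entries were left out because their coordinates belong to alternate or patch sequences. Peaks were placed in 5 Mb windows by the middle of the maximum region. Boundaries were 1000 bp to either side of a gene's end and needed 1 shared base. Chromosome length was taken up to the last gene or peak. Strand and promoter sequence came from the RefSeq promoter table (250 bases before to 50 after the start). Shares carry 95% Wilson intervals and window counts exact Poisson intervals, and both cover counting error only. No test between groups was made, since there was 1 library. Python 3.11.15, pandas 2.3.3, NumPy 2.4.6 and SciPy 1.17.1 were used, and the overlap code was tested on simulated data. Alternatives changed the height minimum, the joining of peaks less than 5 kb apart, the boundary, the window, the gene class and the length. Named peaks, windows and genes followed a rule: the 10 highest peaks, the 3 densest and 3 sparsest windows and the 3 genes with most peaks of each chromosome, and from each of 21 gene lists the 3 highest members and the first 2 without a boundary peak. The printed gene without a peak was the first in alphabetical order whose bases no other protein-coding gene covers. The chromosomes, lists and rules were chosen with earlier results of these data known. One gene that the rule names is not reported here. Other genes over dense windows were named after their values were seen.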

Additional observations from a re-analysis of the deposited data

Results flagged for a closer look

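Peaks were also listed on alternate sequences whose names assign them to these chromosomes, which entered none of the counts above. There were 68 such peaks on 7 sequences named for chromosome 16, 12 on 4 sequences for chromosome 20 and 21 on 9 for chromosome 22. The largest group, 39 peaks, lay on 1 sequence of chromosome 16 between 14488972 and 17060513, a range in which the main chromosome 16 listed 50 peaks. Their highest maximum coverage was 9 for chromosome 16, 4 for chromosome 20 and 5 for chromosome 22.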

How the results depend on the processing

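Under every alternative tried, chromosomes 16, 20 and 22 kept more peaks per Mb and per gene than the other chromosomes. Chromosomes 16, 20 and 22 were picked as rich in peaks of this same list, so this is no independent support. Of 75 recomputed values, 61 fell outside the counting interval of the main value. Some of these had an interval of their own that included the main value. One was the density ratio of chromosome 20 at a maximum of 5 or more (1.87 to 2.51, main value 2.48). With peaks of maximum coverage 3 or more, the density ratio was 2.35 and 3.69 on chromosomes 16 and 22, and the ratio of peaks per gene was 1.6 and 2.72 on chromosomes 16 and 22. The share in gene-dense windows was 79%, 64.6% and 61% on chromosomes 16, 20 and 22, and the boundary share was 37.4%, 28.6% and 27% on chromosomes 16, 20 and 22. The share of protein-coding genes with a boundary peak was 48.8%, 42.8% and 52.4% on chromosomes 16, 20 and 22, and the short-arm share was 49.9% on chromosome 16. With peaks of maximum coverage 5 or more, the density ratio was 2.43 and 2.17 on chromosomes 16 and 20, and the ratio of peaks per gene was 1.65 and 1.65 on chromosomes 16 and 20. The share in gene-dense windows was 80.8%, 62.6% and 65.4% on chromosomes 16, 20 and 22, and the boundary share was 60.5%, 58.8% and 50.5% on chromosomes 16, 20 and 22. The share of protein-coding genes with a boundary peak was 24.3%, 19.6% and 24.4% on chromosomes 16, 20 and 22, and the short-arm share was 33% on chromosome 20. With peaks less than 5 kb apart joined, the density ratio was 1.81, 2.37 and 2.55 on chromosomes 16, 20 and 22, and the ratio of peaks per gene was 1.23, 1.81 and 1.88 on chromosomes 16, 20 and 22. The share in gene-dense windows was 66.1% and 54.5% on chromosomes 16 and 20, and the boundary share was 29.7%, 21.7% and 25.4% on chromosomes 16, 20 and 22. The short-arm share was 37.5% on chromosome 20. With a boundary of 500 bp, the boundary share was 21.1%, 15.3% and 15.3% on chromosomes 16, 20 and 22, and the share of protein-coding genes with a boundary peak was 52.1%, 46.9% and 53.1% on chromosomes 16, 20 and 22. With a boundary of 2000 bp, the boundary share was 34.7%, 25.7% and 27.6% on chromosomes 16, 20 and 22, and the share of protein-coding genes with a boundary peak was 66.5%, 60.3% and 69.9% on chromosomes 16, 20 and 22. With 2 Mb windows, the share in gene-dense windows was 80.5%, 64.7% and 68.5% on chromosomes 16, 20 and 22. With genes of every class, the ratio of peaks per gene was 1.68 and 2.05 on chromosomes 16 and 20, and the share in gene-dense windows was 74.8% and 63.5% on chromosomes 16 and 20. Without spans of at least 1 Mb that hold neither gene nor peak, the density ratio was 2.21 and 3.73 on chromosomes 16 and 22. The list holds few fragments per peak, and 50.2% of the peaks of these chromosomes had a maximum coverage of 1 or 2, while the threshold for listing a peak is unknown. No paired analysis was possible because the results come from no test and there is 1 library per antibody.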
